A study of Mus musculus with 25 samples.

Results

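The 10 genes described here encode proteins that move ions and water across the colon epithelium: Car1, Car4, Slc26a3, Slc9a3, Aqp8, Aqp4, Cftr, Scnn1a, Scnn1b and Atp12a. They were chosen by name as a functional group, and all 10 were found on the array and passed the filter on dim probes, among 25499 genes or unnamed probes tested. Their RNA was measured in whole colon of female mice aged 8 weeks on the C57BL/6j background, on 25 single-colour arrays with 1 mouse per array. The mice were Card9-/- or wild type (WT). CARD9 is an adaptor that carries signals from C-type lectin receptors to NF-kB, and the series concerns its link to colitis through microbial tryptophan products that act on the aryl hydrocarbon receptor. Colitis was induced with 2% (w/v) dextran sulfate sodium (DSS), a polymer that injures the colon lining, given in drinking water for 7 days. The mice then drank water without DSS for 5 days. Mice were sampled at day 0, before DSS (3 Card9-/- and 3 WT), at day 7, the end of DSS (4 Card9-/- and 5 WT), and at day 12, after recovery (5 Card9-/- and 5 WT). The design text names 5 Card9-/- mice at day 7, of which 1 is not analysed here.

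Colonocytes absorb sodium chloride and water. Sodium enters through the exchanger NHE3 (Slc9a3) and, in the distal colon, through the epithelial sodium channel, whose subunits include those encoded by Scnn1a and Scnn1b. Chloride enters in exchange for bicarbonate through the exchanger DRA (Slc26a3), and carbonic anhydrases (Car1 in the cytosol, Car4 on the membrane) interconvert carbon dioxide and bicarbonate. Cftr is the chloride channel of secreting crypt cells, Atp12a is the colonic proton-potassium pump that takes up potassium, and Aqp8 and Aqp4 are water channels.

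Levels are given as log2 of the processed signal minus the 75th percentile of the same array, so that a difference of 1 is a doubling in signal. Levels of different genes cannot be compared, because each probe binds with its own strength. The genes were read by 16 probes in all, and Car1, Car4, Slc26a3, Slc9a3, Aqp8 and Aqp4 each had a second probe. Over the 25 arrays the second probe correlated with the first at 0.78 (Slc26a3) to 1.00 (Car1). Every chosen probe was well above background on 25 arrays, except that of Atp12a, which was so on 24, and none was saturated. A gene was called changed where its adjusted p in limma, fitted to the 6 groups together, was under 0.05. In whole tissue, fewer cells of a type and less RNA per cell cannot be told apart.

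The array set held some arrays that stand apart. Card9-/- day 0 replicates 1 and 2 (1.43 and 1.16) and WT day 7 replicate 1 (1.14) had the highest mean level of 7 Hox genes known to be higher in proximal colon. It was 0.15 in WT day 12 replicate 4 and between -1.76 and -0.70 on the other 21 arrays. The same 3 arrays had the highest means of 5 ileal genes (2.34, 1.26 and 2.22, against 0.22 or less elsewhere). Pancreatic acinar genes were bright in Card9-/- day 7 replicates 2 and 3, Card9-/- day 12 replicate 1 and WT day 12 replicate 5 (means of 9.48, 9.83, 8.93 and 3.30, against -1.95 or less elsewhere). The Card9 probe was brighter on the 12 arrays labelled Card9-/- (-1.52 to -0.48) than on the 13 labelled WT (-6.84 to -2.93), whereas losing the transcript would make it dimmer. It was well above background on 12 of 12 arrays labelled Card9-/- and on 2 of 13 labelled WT. Whether the probe lies in the deleted stretch is not known here, and the cause of this direction was not tested. Each direction between genotypes therefore rests on labels that this probe does not bear out.

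After 7 days of DSS, 2 of the 10 genes were called in arrays labelled Card9-/- (Atp12a higher, Car1 lower) and 0 of 10 in WT, where 2 had an unadjusted p under 0.05. Of all genes tested, 19.6% were called in Card9-/- and 4.32% in WT. Between day 7 and day 12, 1 gene was called in Card9-/- (Scnn1b, higher) against 7.69% of all genes, and 0 in WT against 0.486%. In WT 1 had an unadjusted p under 0.05. The share of all genes at that unadjusted threshold was not counted, so these unadjusted counts cannot show an excess. At day 12 against day 0, 2 were called in Card9-/- (Scnn1b and Atp12a, both higher) against 6.94% of all genes, and 1 in WT (Scnn1b, higher) against 1.73%. The members' median log2 difference at day 7 against day 0 was -0.23 in Card9-/- and -0.06 in WT, beside medians of -0.08 and 0.03 over all genes. Most of the group therefore had no called change at either time, and the calls fell on Scnn1b, Atp12a and Car1.

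**Figure D1:**
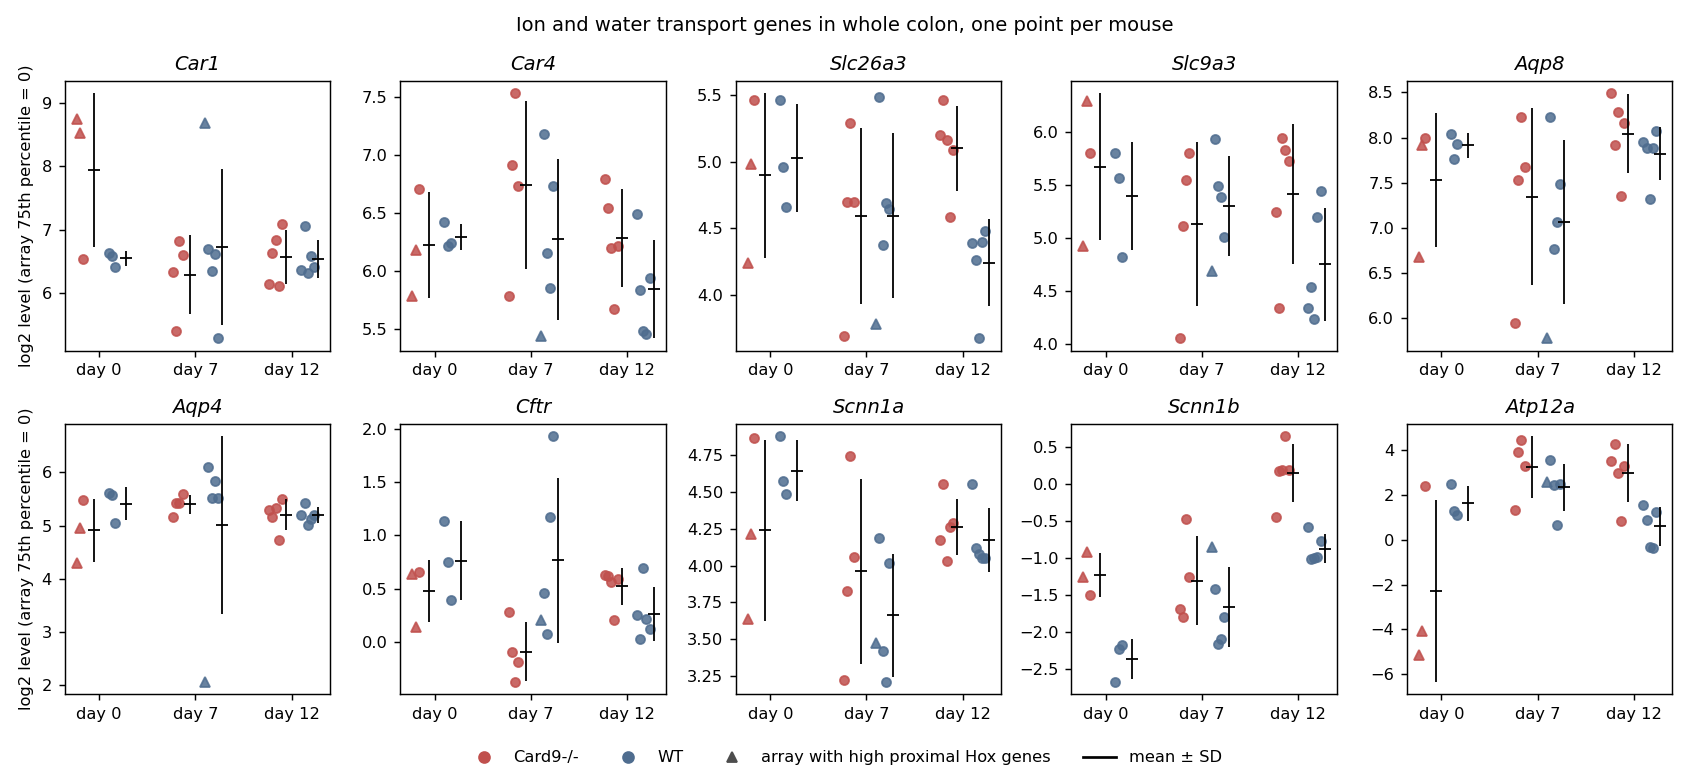
Log2 level of each of the 10 genes (y axis, relative to the array's 75th percentile; the scale differs between panels) by day, with Card9-/- mice left of WT mice. Points are mice, triangles are the 3 arrays with high proximal Hox genes, and bars are the mean ± SD. Scnn1b was higher at day 12 than at day 0 in both genotypes, and Atp12a was below -4 only on the 2 triangles of Card9-/- day 0.

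Scnn1b encodes the beta subunit of the epithelial sodium channel, a subunit that aldosterone induces in distal colon. The 60 bases of its probe lie at chr7:129061584-129061643 (mm9, plus strand). It is shown because the calls repeated across settings rest on this 1 probe.
Scnn1b: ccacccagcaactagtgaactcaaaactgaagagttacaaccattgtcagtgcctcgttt

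At day 0 Scnn1b was at -1.26, -0.92 and -1.50 in Card9-/- and at -2.67, -2.23 and -2.17 in WT. At day 7 it was at -1.69, -1.80, -0.47 and -1.26 in Card9-/- and at -0.85, -1.42, -2.16, -2.10 and -1.80 in WT. At day 12 it was at -0.45, 0.17, 0.19, 0.64 and 0.19 in Card9-/- and at -0.58, -1.02, -1.004, -0.99 and -0.77 in WT. All 5 Card9-/- mice at day 12 were above all earlier Card9-/- mice, and all 5 WT mice at day 12 were above all 3 WT mice at day 0. Groups that do not overlap were found for 11.2% of all genes in Card9-/- day 12 against day 7, 16.6% in Card9-/- day 12 against day 0 and 16.3% in WT day 12 against day 0.

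In arrays labelled Card9-/-, Scnn1b rose at day 12 by 1.45 ± 0.28 (SE; 2.74-fold, adjusted p = 0.00441) over day 7 and by 1.38 ± 0.30 (2.60-fold, adjusted p = 0.00834) over day 0. In WT it rose at day 12 by 1.49 ± 0.30 (2.80-fold, adjusted p = 0.0117) over day 0. Over day 7 the WT difference was 0.79 ± 0.26 and was not called (adjusted p = 0.179). The WT mice at day 7 already lay above all WT mice at day 0, the closest at -2.16 against -2.17. That difference was 0.69 ± 0.30 and was not called (adjusted p = 0.226), where 11.9% of all genes did not overlap. The difference between genotypes in the day 0 to day 12 change was -0.11 ± 0.42, with an adjusted p of 0.991. The rises over day 0 thus differed by less than 1 SE between genotypes.

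From high to low, the group means of Scnn1b were 0.15 ± 0.39 (SD) in Card9-/- day 12, -0.87 ± 0.19 in WT day 12, -1.23 ± 0.29 in Card9-/- day 0, -1.30 ± 0.60 in Card9-/- day 7, -1.66 ± 0.54 in WT day 7 and -2.36 ± 0.27 in WT day 0. Of the neighbours in this order that were compared, no pair passed the test. At day 0 and at day 12 the genotypes did not overlap, as was so for 16.3% and 3.86% of all genes. Scnn1b was 1.13 ± 0.33 higher in Card9-/- at day 0 (adjusted p = 0.651) and 1.02 ± 0.26 higher at day 12 (adjusted p = 0.184). At day 12 it was called with only the 2 groups in the fit (adjusted p = 0.0392) and without the 4 arrays with acinar RNA (1.20, adjusted p = 0.0448). In the latter setting 0.443% of all genes were called, against 0.0706% with all arrays.

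Slides, which were also scan runs, held several groups each. Within slides, the Card9-/- difference between day 12 and day 7 in Scnn1b was 0.02 to 2.33 and positive on 4 of 4 slides. The difference between day 12 and day 0 was 1.44 to 1.85 on 2 slides in Card9-/- and 1.22 to 1.68 on 3 slides in WT. Without Card9-/- day 0 replicates 1 and 2 and WT day 7 replicate 1, the Card9-/- rise over day 0 was 1.65. That left 1 Card9-/- array at day 0. Without WT day 0 replicate 1, the WT rise was 1.33 with an adjusted p of 0.104.

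Scnn1a, the alpha subunit of the same channel, was lower in WT at day 7 than at day 0 and was not called. It was at 3.48, 4.19, 3.42, 3.21 and 4.02 in WT at day 7, against 4.88, 4.57 and 4.49 in WT at day 0. The groups did not overlap, as was so for 11.9% of all genes, and the difference was -0.98 ± 0.29 (adjusted p = 0.0553). In arrays labelled Card9-/- it was at 3.22, 3.83, 4.74 and 4.06 at day 7, against 3.64, 4.22 and 4.87 at day 0, and the groups overlapped. The WT difference passed the threshold under 4 alternative settings, with adjusted p from 0.0289 to 0.0416, and without WT day 7 replicate 2 or 5 (0.0341 and 0.0487). At day 12 Scnn1a was at 4.03 to 4.56 in Card9-/- and 4.05 to 4.56 in WT.

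Slc9a3, the apical sodium-proton exchanger, varied as much within groups as between them. Its mean ± SD was 5.67 ± 0.69 in Card9-/- and 5.39 ± 0.51 in WT at day 0. At day 7 it was 5.13 ± 0.77 in Card9-/- and 5.30 ± 0.47 in WT. At day 12 it was 5.41 ± 0.66 in Card9-/- and 4.75 ± 0.54 in WT. The difference at day 12 against day 0 was -0.25 ± 0.43 in Card9-/- and -0.64 ± 0.43 in WT, and neither was called (adjusted p = 0.885 and 0.586).

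Atp12a had the widest range of the group, 9.60 on the log2 scale over the 25 arrays. The 60 bases of its probe span 228 positions of the genome at chr14:57005794-57006021 (mm9, plus strand), so that they are not contiguous in the genome. It is shown because the largest difference of the group rests on it.
Atp12a: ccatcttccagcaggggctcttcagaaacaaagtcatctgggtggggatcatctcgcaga

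At day 0 Atp12a was at -5.14, -4.07 and 2.38 in Card9-/- and at 2.51, 1.28 and 1.09 in WT, and the lowest of these, Card9-/- replicate 1, was not well above background. At day 7 it was at 1.32, 3.92, 4.46 and 3.29 in Card9-/- and at 2.61, 3.55, 2.44, 0.65 and 2.50 in WT. At day 12 it was at 3.51, 4.30, 3.01, 0.84 and 3.31 in Card9-/- and at 1.53, 0.87, -0.31, -0.38 and 1.26 in WT. Card9-/- replicates 1 and 2 at day 0 lay far below every other array, while replicate 3 lay among the later Card9-/- mice.

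In arrays labelled Card9-/-, Atp12a rose at day 7 by 5.52 ± 1.24 (SE; adjusted p = 0.00337) and at day 12 by 5.27 ± 1.19 (adjusted p = 0.0103) over day 0, although the groups overlapped. The 2 low arrays are those with high proximal Hox genes. Without them and WT day 7 replicate 1, the differences were 0.86 ± 1.22 (adjusted p = 0.797) and 0.61 ± 1.20 (adjusted p = 0.986), against the single remaining day 0 array, which was assumed to vary like the other groups. With the proximal Hox mean as a covariate they were 3.19 (adjusted p = 0.103) and 2.67 (adjusted p = 0.32). Leaving out day 0 replicate 1 or 2 alone ended the day 12 call (3.83, adjusted p = 0.115, and 4.37, adjusted p = 0.0949). Within slides the day 7 difference was 2.16 on the slide with day 0 replicates 2 and 3, and 8.43 on the slide with day 0 replicate 1. Each slide thus holds 1 of the 2 low arrays, so the slides do not check the difference apart from them. Without the arrays with acinar RNA the day 7 difference was 4.58 and was not called (adjusted p = 0.0675).

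In WT, Atp12a was 0.72 ± 1.19 higher at day 7 than at day 0 (adjusted p = 0.805). At day 12 it was 2.40 ± 1.03 higher in Card9-/- than in WT (5.27-fold), with an unadjusted p of 0.0298 and an adjusted p of 0.489. The groups overlapped through Card9-/- replicate 4, at 0.84.

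Car1, the cytosolic carbonic anhydrase of colonocytes, was called lower at day 7 in arrays labelled Card9-/-. The 60 bases of its probe lie at chr3:14767486-14767545 (mm9, minus strand), and its second probe gave a day 7 difference of -1.67. It is shown as the probe of the only member called lower.
Car1: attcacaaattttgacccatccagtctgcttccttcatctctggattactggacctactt

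At day 0 Car1 was at 8.74, 8.53 and 6.55 in Card9-/- and at 6.64, 6.59 and 6.42 in WT. At day 7 it was at 6.33, 5.41, 6.82 and 6.61 in Card9-/- and at 8.69, 6.70, 6.36, 6.62 and 5.29 in WT. At day 12 it was at 6.12 to 7.09 in Card9-/- and at 6.32 to 7.06 in WT. The 3 values above 8 were those of the 3 arrays with high proximal Hox genes, and 22 of 25 arrays lay between 5.29 and 7.09.

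Car1 fell by 1.65 ± 0.57 (SE) on the log2 scale at day 7 in Card9-/- (adjusted p = 0.0458). Without the 3 arrays with high proximal Hox genes the difference was -0.25, with 1 Card9-/- array left at day 0. With the proximal Hox mean as a covariate it was -0.19 (adjusted p = 0.809). Leaving out any of Card9-/- day 0 replicates 1 or 2 or Card9-/- day 7 replicates 1, 2 or 4 ended the call (adjusted p from 0.0591 to 0.227). Within slides the difference was -2.13 on the slide with day 0 replicate 1 and -1.20 on the slide with day 0 replicates 2 and 3. Each slide thus holds a day 0 array with high proximal Hox genes. In WT the difference was 0.18 ± 0.54 (adjusted p = 0.899).

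**Figure D2:**
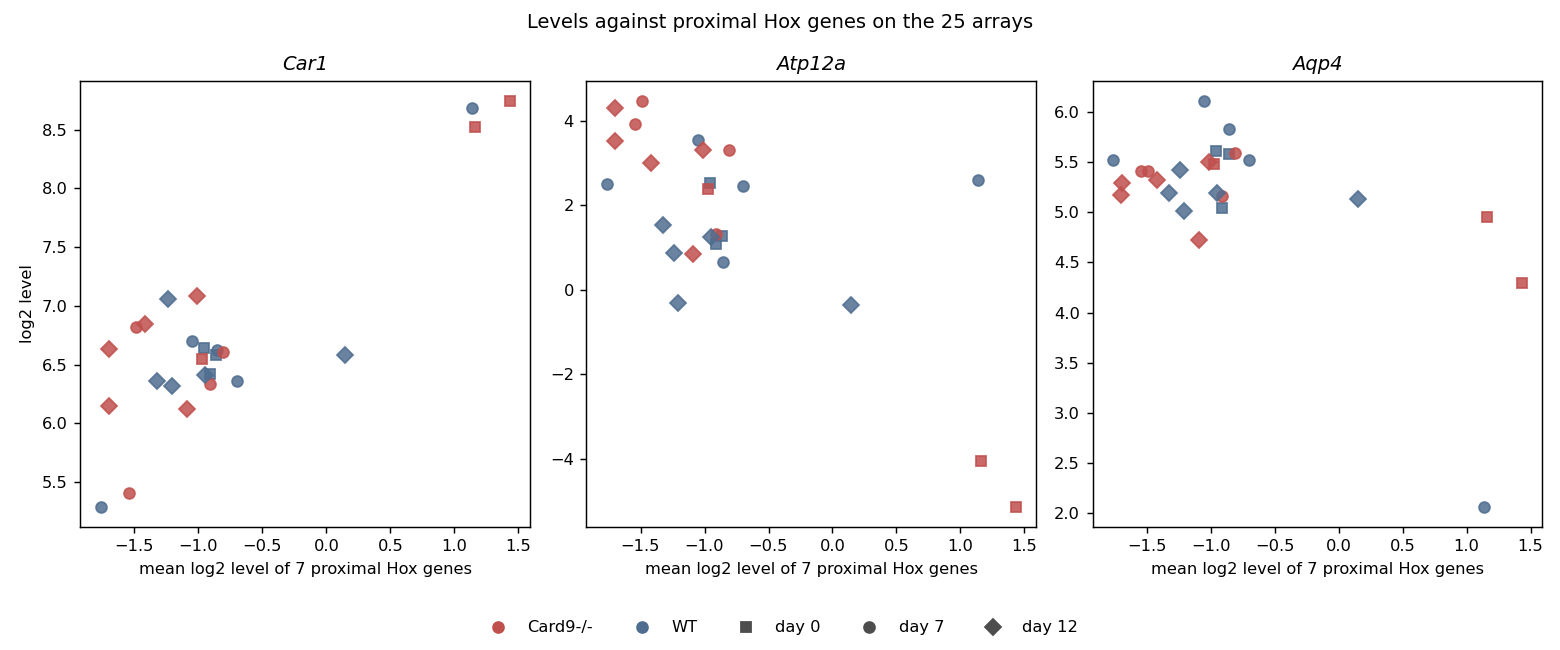
Log2 level of Car1, Atp12a and Aqp4 (y axes) against the mean log2 level of 7 proximal Hox genes (x axis) on the 25 arrays, coloured by genotype and shaped by day. On the 3 arrays to the right Car1 was at 8.53 to 8.74, Atp12a was at -5.14 and -4.07 in the 2 Card9-/- day 0 mice and at 2.61 in the WT day 7 mouse, and Aqp4 was at 2.06 in that WT mouse.

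Car4, the membrane-bound carbonic anhydrase, was not called in any comparison of the 6 groups. Its level in Card9-/- was 5.79 to 6.70 at day 0, 5.79 to 7.53 at day 7 and 5.67 to 6.80 at day 12. In WT it was 6.22 to 6.42 at day 0, 5.44 to 7.18 at day 7 and 5.46 to 6.49 at day 12. The spread within day 7 groups (SD 0.72 in Card9-/- and 0.69 in WT) was larger than any difference between group means in a comparison of days within a genotype (-0.45 to 0.52). With the mean of 12 epithelial genes as a covariate, the Card9-/- difference at day 7 was 1.13 and was called (adjusted p = 0.0396).

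Slc26a3, the chloride-bicarbonate exchanger whose loss causes congenital chloride diarrhoea in people, separated the genotypes at day 12 without passing the test. It was at 5.20, 5.46, 5.16, 4.59 and 5.09 in Card9-/- and at 4.39, 4.26, 3.67, 4.40 and 4.48 in WT. The Card9-/- mice were all above the WT mice, by 0.86 ± 0.31 on average (1.81-fold), with an unadjusted p of 0.0109 and an adjusted p of 0.348, where 3.86% of all genes did not overlap. The second probe gave 0.55 ± 0.32. In WT the day 12 mice also lay below all 3 day 0 mice (5.46, 4.96 and 4.66), by 0.79 ± 0.35 (adjusted p = 0.335), where 16.3% of all genes did not overlap. In Card9-/- the day 12 difference from day 0 was 0.20 ± 0.35 (adjusted p = 0.89).

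Aqp8, the apical water channel of surface colonocytes, had its lowest value in each genotype at day 7. At day 7 it was at 5.95, 7.53, 8.23 and 7.68 in Card9-/-, against 6.68, 7.92 and 7.99 at day 0. In WT it was at 5.78, 8.23, 6.77, 7.07 and 7.48 at day 7, against 8.05, 7.77 and 7.93 at day 0. The 5.78 was WT day 7 replicate 1 and the 6.68 was Card9-/- day 0 replicate 1, both arrays with high proximal Hox genes. The groups overlapped in both genotypes, and the differences of -0.18 ± 0.49 in Card9-/- and -0.85 ± 0.47 in WT were not called (adjusted p = 0.866 and 0.381). The second probe gave -0.085 ± 0.489 in Card9-/- and -1.22 ± 0.47 in WT. Neither was called with each probe tested on its own (adjusted p = 0.948 and 0.175). At day 12 Aqp8 was at 7.36 to 8.49 in Card9-/- and 7.32 to 8.07 in WT. The SD at day 7 was 0.98 in Card9-/- and 0.91 in WT, against 0.74 in Card9-/- and 0.14 in WT at day 0.

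Aqp4, the basolateral water channel, had 1 mouse far below the others. WT day 7 replicate 1, an array with high proximal Hox genes, was at 2.06, and the other 24 arrays lay between 4.29 and 6.11. The lowest of these, at 4.29, was Card9-/- day 0 replicate 1, and replicate 2 of that group was at 4.95. No comparison was called.

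Cftr, the cyclic-AMP-gated chloride channel, was lowest in Card9-/- at day 7. It was at 0.28, -0.09, -0.37 and -0.19 there, against 0.20, 0.46, 0.07, 1.17 and 1.93 in WT at day 7. The groups overlapped, and the difference of -0.86 ± 0.28 had an unadjusted p of 0.0058 and an adjusted p of 0.129. Without WT day 7 replicate 3 it was -1.04 and was called (adjusted p = 0.0243), where 8.89% of all genes were called. In Card9-/- the day 12 values (0.21 to 0.63) lay 0.61 ± 0.28 above day 7 on average (adjusted p = 0.193).

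**Figure D3:**
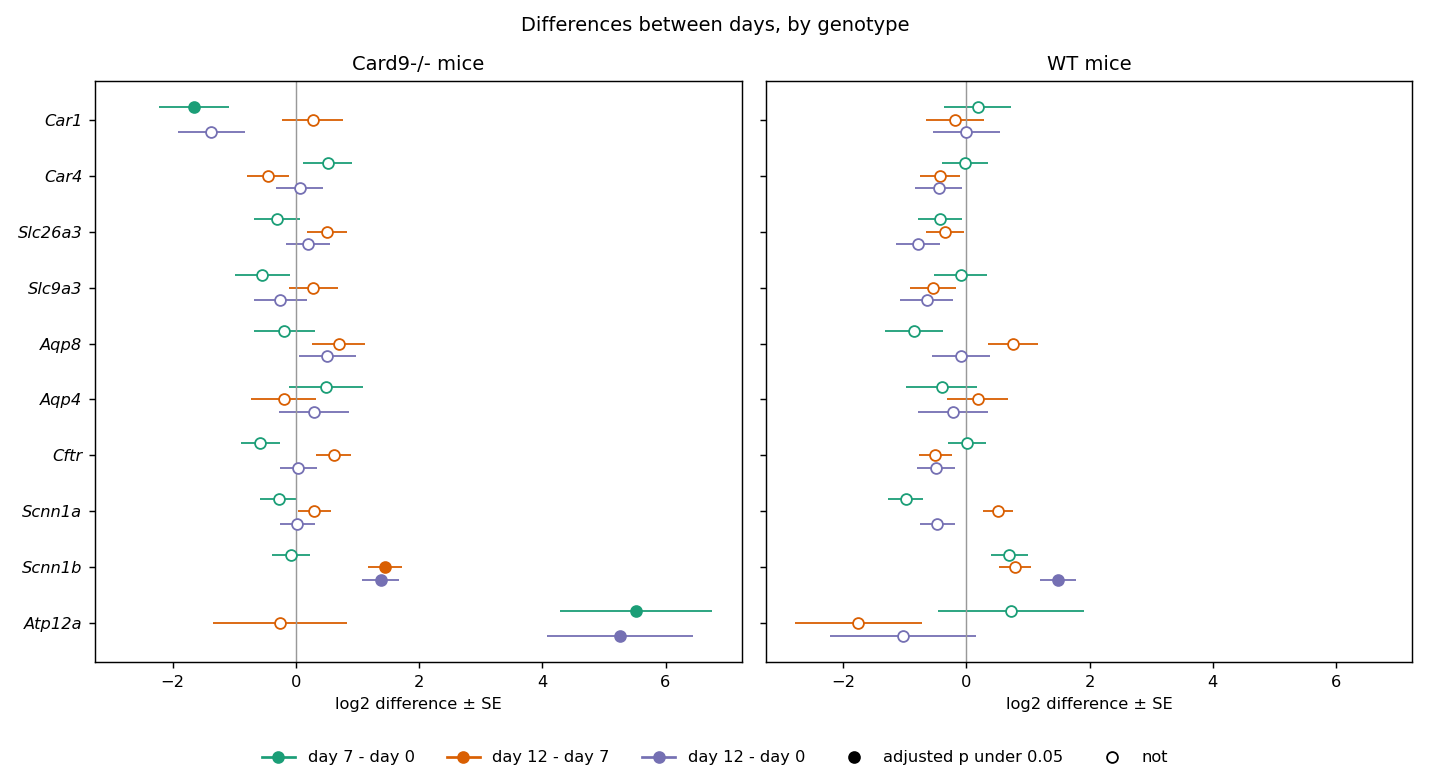
Log2 difference ± SE (x axis) between days for each gene (rows), in Card9-/- mice (left) and WT mice (right), from limma. Filled points have an adjusted p under 0.05: Car1 and Atp12a at day 7 and Scnn1b and Atp12a at day 12 in Card9-/-, and Scnn1b at day 12 against day 0 in WT.

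Between genotypes, 0 of 10 genes were called at day 0, at day 7 or at day 12 by limma, beside 0.00392%, 0.549% and 0.0706% of all genes. At an unadjusted p under 0.05 there were 3 at day 0 (Car1, Scnn1b and Atp12a), 1 at day 7 (Cftr) and 3 at day 12 (Slc26a3, Scnn1b and Atp12a). The share of all genes at that threshold was not counted, here or below, so these counts cannot show an excess. At day 12 all 10 differences were positive, with a median of 0.35 against -0.01 over all genes, and the 10 as a group were not tested. The groups did not overlap at day 12 for 2 of 10 members (Slc26a3 and Scnn1b), as was so for 3.86% of all genes. The change over time differed between genotypes for 0 of 10 genes from day 0 to day 7, from day 7 to day 12 and from day 0 to day 12, beside 0.00392%, 0.00784% and 0.00392% of all genes. Unadjusted p was under 0.05 for 2, 1 and 1 of them. Without Card9-/- day 0 replicate 3, Atp12a was called in the day 0 comparison (-6.23, adjusted p = 0.00942) and in the change to day 7 and to day 12 (adjusted p = 0.0153 and 0.0116). The day 0 arrays then left for Card9-/- are the 2 with high proximal Hox genes, 1 of them not well above background for Atp12a, so these values rest on those arrays.

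Within groups, several of the genes varied together from mouse to mouse. For each array the deviation from its group mean was taken, and the 45 pairs of genes were tested by permuting arrays within groups (100000 permutations, 2-sided, Benjamini-Hochberg adjustment over the pairs). By Pearson r, 16 pairs had an adjusted p under 0.05, all 16 positive. By Spearman rho 13 pairs did, 12 positive and 1 negative. Slc26a3 and Aqp8 had Pearson r = 0.91 and Spearman rho = 0.78 (permutation adjusted p = 3e-04 and 0.0012, 25 arrays), and r was 0.87 without the 2 arrays farthest from the median of Slc26a3. Car4 correlated with Aqp8 at r = 0.88 (rho 0.83) and with Slc26a3 at r = 0.85 (rho 0.78), each with a permutation adjusted p of 3e-04 for r, and r was 0.81 and 0.77 without the 2 farthest arrays. Scnn1a correlated with Car4 at r = 0.81 (rho 0.76, permutation adjusted p = 0.0014 for r). Without the 3 arrays with high proximal Hox genes these r were 0.89, 0.87, 0.82 and 0.83. Every r given without some arrays, here and below, uses deviations from the means of the full groups. The arrays left out therefore still enter through those means, and these r do not show what holds without them.

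Atp12a had r = 0.74 with Scnn1a, 0.68 with Car4, 0.66 with Slc26a3 and 0.53 with Aqp8, with permutation adjusted p from 0.00045 to 0.045. Scnn1b had r = 0.03 with Car4 and r nearer 0 with Slc26a3 and Aqp8 (permutation adjusted p = 1 for each). With Scnn1a its r was 0.36 (permutation adjusted p = 0.35), and 0.52 without the arrays with high proximal Hox genes. The negative pair by rho was Cftr and Scnn1b, with rho = -0.58 (permutation adjusted p = 0.035) and r = -0.44 (0.23). Its r was -0.75 without the 2 arrays farthest in Cftr and -0.32 without the arrays with high proximal Hox genes. Car1 and Aqp4 had r = -0.63, with rho = -0.22 and a permutation adjusted p of 0.23 for r. Without the 2 arrays farthest in Car1, r was -0.21, so the relation rests on those arrays. The mean of 12 general epithelial genes moved with the same deviations (r = 0.59 with Slc26a3, 0.62 with Aqp8 and 0.63 with Car4). The proximal Hox mean moved against them (-0.54, -0.55 and -0.67 with the same genes in that order), as did the mean of the stromal genes (-0.47, -0.40 and -0.52). The part of these in the shared variation was not tested. Values of 2 genes on an array also share that array's scaling.

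**Figure D4:**
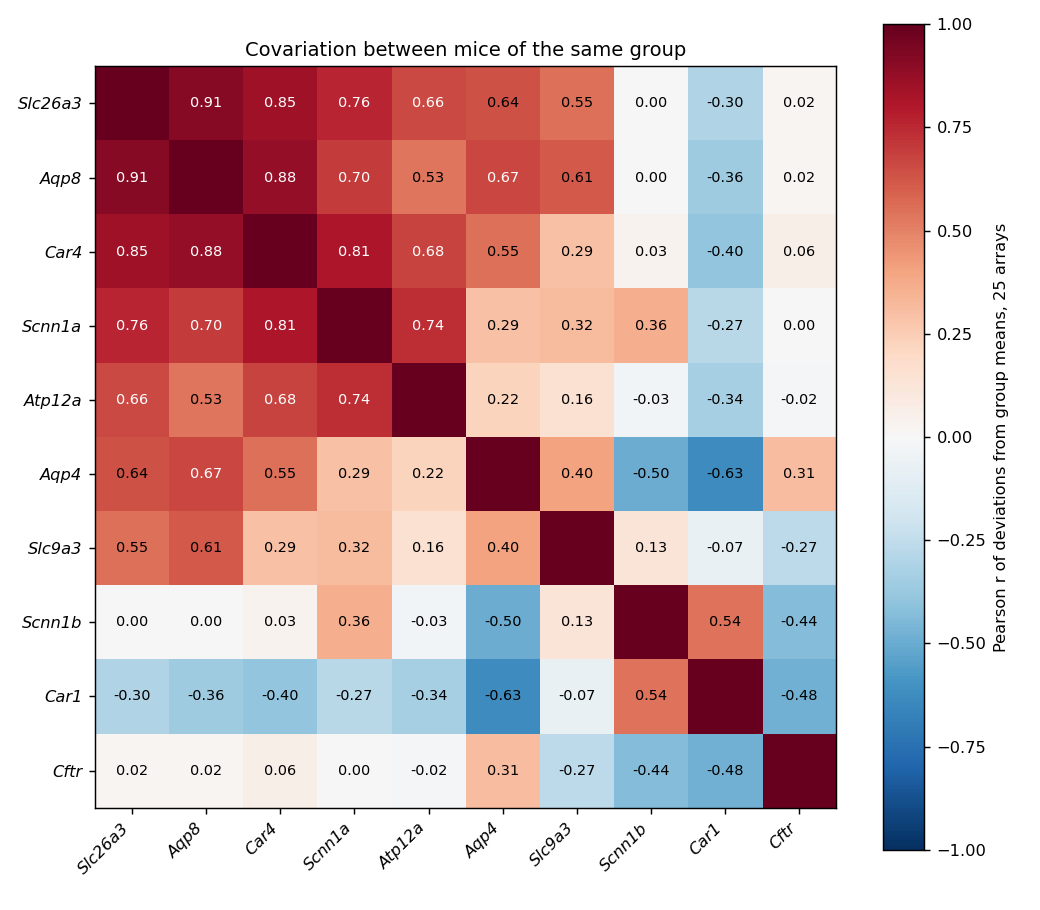
Pearson r between pairs of the 10 genes, from deviations of each array from its group mean (25 arrays, colour from -1 to 1). Slc26a3, Aqp8, Car4, Scnn1a and Atp12a had r of 0.53 to 0.91 with each other, and Cftr had r of -0.02 to 0.06 with these 5 genes.

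The sequence before the start site of the 3 genes with the highest correlations is shown so that their promoters can be compared. RefSeq promoter entries (GRCm38.p6) were found for 6 of the 10 members. Each run below is the 250 bases upstream of the annotated start, on the plus strand: Slc26a3 at chr12:31437969-31438218, Aqp8 at chr7:123462044-123462293 and Car4 at chr11:84957504-84957753. Capitals mark matches, on either strand, to 4 short motifs. The HNF1 half-site was searched as GTTAAT. The half-site of nuclear receptors was searched as AGGTCA. The core of CDX sites was searched as TTTAT, and the TATA box was searched as TATAAA.
Slc26a3: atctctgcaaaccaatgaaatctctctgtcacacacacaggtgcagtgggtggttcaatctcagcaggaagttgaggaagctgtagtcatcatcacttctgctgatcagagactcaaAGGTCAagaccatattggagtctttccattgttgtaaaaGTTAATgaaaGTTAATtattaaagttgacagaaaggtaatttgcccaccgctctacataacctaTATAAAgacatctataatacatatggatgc
Aqp8: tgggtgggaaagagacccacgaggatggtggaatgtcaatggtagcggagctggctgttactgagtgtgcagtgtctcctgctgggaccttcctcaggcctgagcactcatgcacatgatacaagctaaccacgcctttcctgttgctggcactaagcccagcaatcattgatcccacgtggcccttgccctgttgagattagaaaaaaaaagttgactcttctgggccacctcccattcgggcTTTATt
Car4: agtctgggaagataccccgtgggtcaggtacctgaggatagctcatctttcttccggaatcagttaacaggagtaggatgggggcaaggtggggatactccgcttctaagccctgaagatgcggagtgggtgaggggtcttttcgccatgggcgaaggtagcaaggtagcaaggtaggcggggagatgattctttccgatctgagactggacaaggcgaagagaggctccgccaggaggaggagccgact

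Slc26a3 held 2 matches to GTTAAT, 1 to AGGTCA, 1 to TATAAA and 1 to TTTAT on the minus strand, which overlaps the TATA match. Aqp8 held 1 match to TTTAT and Car4 held no match to any of the 4. Among 32851 promoter entries, the same window held GTTAAT in 6.43%, AGGTCA in 14%, TTTAT in 37.3% and TATAAA in 12.4%. No motif of the 4 was in all 3 windows.

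The genes with the most similar pattern over the 25 arrays differed from member to member. Car1 was most like Cyp4b1, Nceh1 and Itga7 (Pearson r = 0.92, 0.92 and 0.90), and Atp12a was most like Stfa3, Gpr137b and Cstdc5 (0.93, 0.92 and 0.91). Stfa3 and Cstdc5 belong to a family of near-identical stefin genes whose probes cannot be told apart with certainty. Scnn1b was most like Srf, Lamb3 and Creb3l3 (0.82, 0.82 and 0.80), and its within-group r with them was 0.52, 0.76 and 0.33. Dlg3 was among the closest genes of both Slc26a3 (0.82, after Xpr1 at 0.89 and before Slc20a1 at 0.82) and Aqp8 (0.87, before Tmbim1 at 0.84 and Mfsd6 at 0.80). For Car4 these were Cers4, Oscar and Cyp2d10 (each 0.91), for Cftr Trpm1, Akap7 and Gm5590 (each 0.88), and for Scnn1a Phlpp2, Pramel25 and Capn9 (0.87, 0.86 and 0.85). Aqp4 was most like Uox and the Hoxa cluster transcripts Hoxa11os and Hoxaas3 (0.81, 0.80 and 0.79). Slc9a3 had the weakest likeness, with Prelid3b at 0.65, Slc26a3 at 0.63 and Slc16a5 at 0.59.

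Other ion and water transport genes were set beside the 10, in lists for sodium absorption (16 tested), chloride and bicarbonate (21), potassium (7) and further aquaporins (6). At day 7 in arrays labelled Card9-/-, 3 of these 50 genes rose and 18 fell, beside 6.9% and 12.7% of all genes, with a median of -0.40 against -0.08 over all genes. The falls were 5 of 16 sodium genes, 5 of 21 chloride and bicarbonate genes, 6 of 7 potassium genes and 2 of 6 aquaporins. In WT 1 rose and 2 fell, beside 2.01% and 2.31% of all genes. Without the 3 arrays with high proximal Hox genes, 1 rose and 1 fell in Card9-/-, where 4.29% of all genes were called, with 1 array left at day 0. The median difference was then -0.46, against -0.17 over all genes. Without the arrays with acinar RNA, 2 rose and 11 fell, where 12.8% of all genes were called, with a median of -0.50 against -0.15 over all genes. The mean of the neutrophil and macrophage genes was 2.85 to 3.32 in Card9-/- at day 7, against -1.94 to -1.28 at day 0, and that of the epithelial genes was 6.47 to 6.71, against 6.80 to 6.84. Their part in the falls was not tested.

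The falls with the smallest p in Card9-/- at day 7 were those of Kcnq1, a potassium channel of the basolateral membrane, Guca2a, the peptide guanylin that drives chloride secretion, and Kcnma1, the large calcium-activated potassium channel. Kcnq1 was at 3.45, 3.01, 2.47 and 2.96 at day 7, against 4.35, 4.20 and 4.19 at day 0 (-1.27 ± 0.23, adjusted p = 0.000562). Guca2a changed by -1.48 ± 0.28 and Kcnma1 by -0.996 ± 0.188 (adjusted p = 0.000852 and 0.000893), without overlap of the groups, as was so for 27.1% of all genes. Leaving out the arrays with high proximal Hox genes left 1 Card9-/- array at day 0. The differences were then -1.21 for Kcnq1, -1.44 for Guca2a and -1.02 for Kcnma1.

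Clca4b, a member of the calcium-activated chloride channel regulator family, rose at day 7 in both genotypes. It was at 4.63, 5.91, 4.93 and 5.42 in Card9-/- at day 7, against 1.62, 2.07 and 1.11 at day 0 (3.62 ± 0.52, 12.3-fold, adjusted p = 8.09e-05). In WT it was at 1.76, 3.43, 4.70, 4.28 and 4.37, against 1.36, 1.71 and 1.00 (2.35 ± 0.50, 5.09-fold, adjusted p = 0.00942). All day 7 mice were above all day 0 mice of their genotype, and WT day 7 replicate 1 was only just above. The Card9-/- rise was 4.11 without the arrays with high proximal Hox genes, with 1 Card9-/- array left at day 0. The WT call was lost without WT day 0 replicate 3.

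The other named rises in Card9-/- at day 7 were those of Slc4a1 and Fxyd4. Slc4a1, the anion exchanger of red cells, was at least 6.66-fold higher (adjusted p = 0.000708), with 0 of 3 day 0 arrays well above background. Leaving out the arrays with high proximal Hox genes left 1 Card9-/- array at day 0. The measured log2 difference was then 2.72, against 3.61 with all arrays, both set against day 0 signal not well above background. The mean of 5 haemoglobin and haem genes was 2.43 to 5.55 in these day 7 mice, against -1.13 to 0.03 at day 0, and its part in the Slc4a1 result was not tested. Fxyd4, a regulator of the sodium-potassium pump, was at 1.55, 3.38, 6.65 and 3.26 at day 7, against -6.98, -6.99 and 2.50 at day 0 (adjusted p = 0.0129), of which the 2 lowest were not well above background. Its 2 lowest arrays were Card9-/- day 0 replicates 1 and 2, as for Atp12a. Without the arrays with high proximal Hox genes the difference was 1.21, with 1 Card9-/- array left at day 0.

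In WT at day 7 the falls were those of Ano1, a calcium-activated chloride channel (-1.59 ± 0.34, adjusted p = 0.011), and Kcne3, the partner subunit of Kcnq1 in the epithelium (-0.55 ± 0.15, adjusted p = 0.0367). Ano1 was at 4.27, 4.36, 3.42, 3.56 and 4.34 in WT at day 7, against 5.76, 5.62 and 5.36 at day 0, so that the groups did not overlap. Both calls were lost without WT day 0 replicate 1 or 2, and that of Kcne3 also without WT day 0 replicate 3 or WT day 7 replicate 1, 2 or 3.

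From day 7 to day 12 in arrays labelled Card9-/-, 9 of the 50 genes rose and 2 fell, beside 5.72% and 1.97% of all genes. The rises were 1 of 16 sodium genes, 4 of 21 chloride and bicarbonate genes and 4 of 7 potassium genes. Those with the smallest p were Kcnk6, a background potassium channel (0.65 ± 0.09, adjusted p = 0.000918), Fxyd3, another pump regulator (1.10 ± 0.21, adjusted p = 0.00474), and Kcnma1 (0.83 ± 0.17, adjusted p = 0.00593). Kcnk6 was at 4.17, 4.38, 4.51, 4.45 and 4.55 at day 12, against 3.88, 3.71, 3.70 and 3.78 at day 7, without overlap. The falls were Slc4a1 (-2.55 ± 0.58, adjusted p = 0.0121, well above background on 1 of 5 day 12 arrays) and Clca4b (-1.62 ± 0.46, adjusted p = 0.0329). Without the arrays with acinar RNA, 1 gene rose (Kcnk6, adjusted p = 0.0263) and 0 fell, where 0.969% of all genes were called. The differences were then 1.07 for Fxyd3, 0.69 for Kcnma1 and -2.02 for Slc4a1, and the median of the 50 genes was 0.32, against 0.23 with those arrays. The Clca4b call was also lost without Card9-/- day 7 replicate 2 or 4 or Card9-/- day 12 replicate 2, 4 or 5.

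In WT from day 7 to day 12, 1 of the 50 rose and 0 fell, beside 0.365% and 0.122% of all genes. The rise was that of Clca4a, a relative of Clca4b, at 5.10, 5.57, 4.79, 5.72 and 5.16 at day 12, against 2.86, 4.17, 4.57, 4.03 and 3.71 at day 7 (1.40 ± 0.28, adjusted p = 0.0304). The call was lost without any of WT day 12 replicates 1, 2, 4 and 5.

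**Figure D5:**
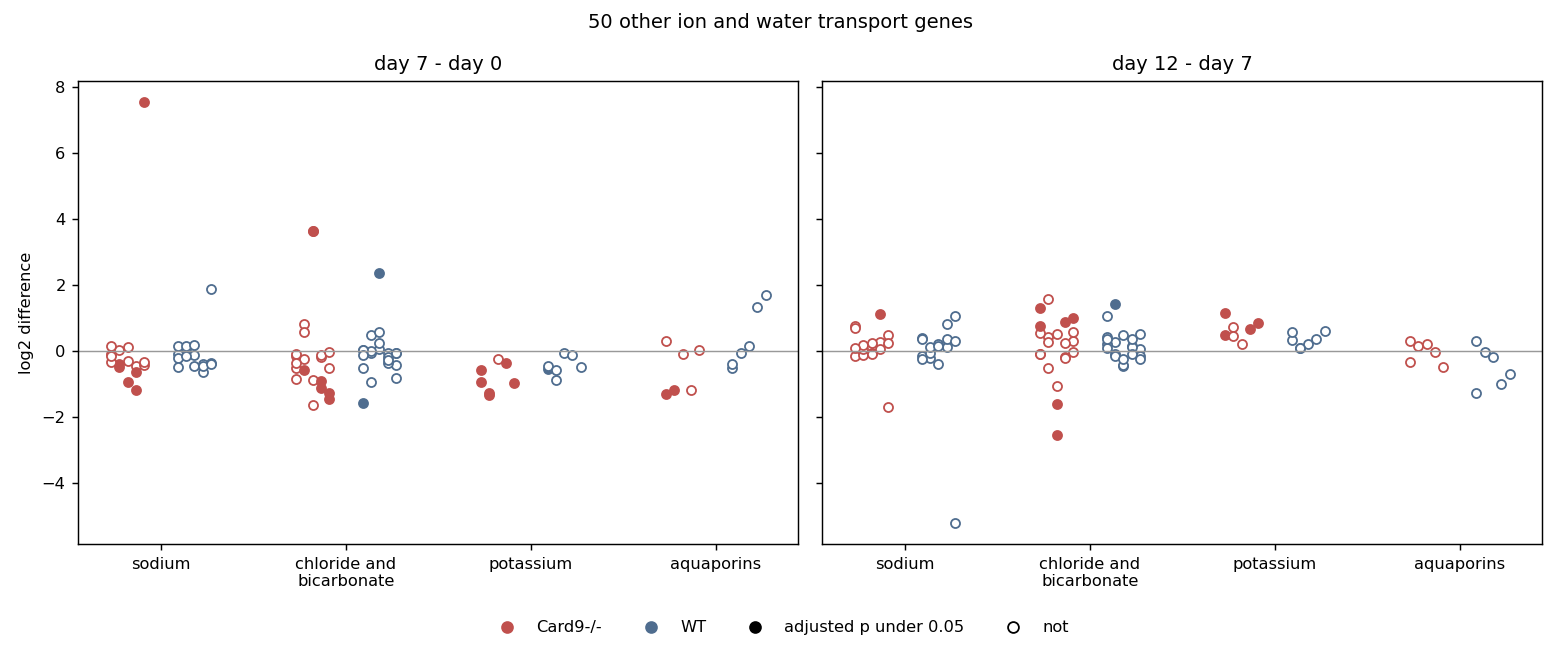
Log2 difference (y axis) of 50 other transport genes by list, at day 7 against day 0 (left) and day 12 against day 7 (right), with Card9-/- left of WT within each list. Filled points have an adjusted p under 0.05: 3 higher and 18 lower in Card9-/- and 1 higher and 2 lower in WT at day 7, then 9 higher and 2 lower in Card9-/- and 1 higher in WT at day 12.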

How the data were processed

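Each array file holds spot intensity values made by Agilent Feature Extraction 10.7.3.1, per the file headers; as deposited, this intensity had its background subtracted and its spatial trend removed within each array and was not scaled between arrays. The deposited series value table, on what its values show to be a log2 scale with normalization not given in the sources used here, served as an alternative only.

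The analysis took log2 of the processed intensity minus the array's 75th percentile over non-control spots, dropped outlier-flagged spots and averaged the spots of a probe. Probes well above background on at least 3 of 25 arrays were kept, and a gene was represented by its brightest probe. The 6 groups, taken from the labels, were fitted in a single limma model (limma 3.58.1, R 4.3.3), with Benjamini-Hochberg adjustment over all 25499 genes or unnamed probes and a threshold of 0.05. Labels and design text describe separate mice, so the p-values measure the spread between mice, and the number of arrays limits the precision. The fit was tested on simulated data. Figures were drawn with matplotlib 3.10.9.

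The members, gene lists and alternatives were chosen with earlier results of these data known. Other transport genes were named by smallest p, up to 3 called rises and 3 called falls in each comparison of day 7 with day 0 and day 12 with day 7, and like genes by the 3 highest Pearson r. Motifs, and the alternative that leaves out the 3 arrays with high proximal Hox genes, were chosen after the data had been seen. The likeness r are descriptions over arrays that fall in 6 groups. A fold of at least N sets the bright group's mean against a floor on each dim array, taken from its dimmest probe well above background, or from the measured signal where that is higher. Probe coordinates are mm9, as in the array design, and promoter sequences are RefSeq's (GRCm38.p6).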

Additional observations from a re-analysis of the deposited data

Results flagged for a closer look

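In 5 of 40 tests of a gene in a group of 4 or 5 mice, 1 mouse lay further from the others than Dixon's limit allows, which chance passes in about 1 of 20 groups. WT day 12 replicate 3 was low in both Slc26a3 (3.67, nearest mouse 4.26) and Aqp8 (7.32, nearest 7.88). WT day 7 replicate 1 was low in Aqp4 (2.06, nearest 5.52), and it is an array with high proximal Hox genes. Card9-/- day 12 replicate 4 was low in Cftr (0.21, nearest 0.56), and WT day 12 replicate 1 was high in Scnn1a (4.56, nearest 4.12).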

How the results depend on the processing

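Results were recomputed under 13 alternatives. These changed the background correction (normexp, offset 50), the normalization (quantile), the source (series value table), the filter on dim probes (none, or 13 arrays) and the unit of testing (each probe), or added the slide or the replicate number as a block, or the proximal Hox or the epithelial mean as a covariate. Others fitted only the compared groups or left out the arrays with acinar RNA or with high proximal Hox genes. No member changed direction where it was called. Scnn1b was called under all 13 in Card9-/- day 12 against day 7 (1.18 to 1.77) and in WT day 12 against day 0 (1.08 to 1.49), and under 12 of 13 in Card9-/- day 12 against day 0 (1.15 to 1.79). Atp12a was called under 9 of 13 in Card9-/- day 7 against day 0 and 10 of 13 at day 12 against day 0, and Car1 under 3 of 13. With each probe tested on its own, a gene counted as called where any of its probes was, and Car1 was so through its second probe (adjusted p = 0.0458), while its reported probe had 0.0512.

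The count of members called in Card9-/- day 7 against day 0, 2 as reported, was 1 with the slide as a block, no filter, the series value table or quantile normalization. It was 0 with only the compared groups, the Hox covariate, or without the arrays with acinar RNA. Without the arrays with acinar RNA, 12.8% of all genes were called there, against 19.6% as reported. Leaving out the arrays with high proximal Hox genes left 1 Card9-/- array at day 0, and the differences were 0.86 for Atp12a and -0.25 for Car1. In WT day 7 against day 0 it was 1 (Scnn1a) in place of 0 with normexp, the series value table, the filter of 13 arrays or the Hox covariate. In Card9-/- day 12 against day 0, 2 as reported, it was 1 with only the compared groups or the Hox covariate. Leaving out the arrays with high proximal Hox genes, with 1 Card9-/- array left at day 0, gave differences of 0.61 for Atp12a and 1.65 for Scnn1b. Between genotypes at day 12 it was 1 (Scnn1b) in place of 0 with only the compared groups or without the arrays with acinar RNA. In the latter setting 0.443% of all genes were called, against 0.0706% as reported. Fewer samples entered where arrays were left out or fewer groups were fitted. The cause of the changed counts was not tested in any setting.

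Leaving out each array in turn gave counts of 1 to 2 in Card9-/- and 0 to 1 in WT for day 7 against day 0, 1 to 1 and 0 to 0 for day 12 against day 7, and 1 to 3 and 0 to 1 for day 12 against day 0. Between genotypes they were 0 to 1 at day 0, 0 to 1 at day 7 and 0 to 0 at day 12, and for the genotype difference in change 0 to 1, 0 to 0 and 0 to 1. The 3 in Card9-/- day 12 against day 0 came without Card9-/- day 0 replicate 3, where 6.49% of all genes were called. Car1 was then also called, lower (-2.07, adjusted p = 0.0269), against the 2 day 0 arrays with high proximal Hox genes. Between genotypes, the 1 at day 7 came without WT day 7 replicate 3, where 8.89% of all genes were called. The 1 at day 0 and those in the change came without Card9-/- day 0 replicate 3. There 0.227% of all genes were called at day 0, 0.306% in the change to day 7 and 0.204% in that to day 12.

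In 0 of 15 pairs of groups did every same-numbered pair of mice deviate together (r over 0.1), and 15 of 54 single pairs did. For WT day 7 with WT day 12 the 5 r were 0.052 to 0.682, 3 of them over 0.1. Differently numbered mice were not compared, so the check cannot exclude that replicate numbers pair some mice. With the replicate number as a block, the count in Card9-/- day 7 against day 0 was 1 in place of 2, since Car1 was not called (adjusted p = 0.0699), and the other 11 counts did not move.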
